A study of Mus musculus with 11 samples.

Results

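Matrix metalloproteinases (MMPs) are zinc-dependent proteases that cut collagens, other matrix proteins and proteins of the cell surface. Among the mouse genes that encode them, 10 were followed in freshly sorted mammary fibroblasts: Mmp2, Mmp3, Mmp9, Mmp10, Mmp11, Mmp12, Mmp13, Mmp14, Mmp19 and Mmp23. They were a named selection of the family, of which 12 further members were measured and are counted separately below. Each was read from the brightest probe set whose only gene symbol was that of the gene. All 10 were found, each with 1 such probe set. The 35399 probe sets of the array included 21789 with 1 symbol, which gave 19938 genes.

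The arrays profiled fibroblasts that were sorted by flow cytometry and not cultured, from female mice at 4 steps of mammary carcinogenesis. Normal mammary fibroblasts (NMFs) came from glands of FVB/n mice aged 8 weeks (2 arrays, D2 and D5). MMTV-PyMT mice, in which a viral promoter active in mammary epithelium drives the polyoma middle T oncogene, gave fibroblasts of hyperplasia at 4 weeks (3 arrays, D6, D7 and D12), of carcinoma at 9 weeks (3 arrays, D3, D4 and D10) and of advanced carcinoma, labelled late carcinoma, at 12 weeks (3 arrays, D8, D9 and D11). Cells were kept when positive for CD140a (PDGFRα) and negative for a macrophage antigen (the product of Adgre1) and, per the labels, EpCAM, and each array was a pooled cohort of several mice. Fibroblasts of both tumour stages are called cancer-associated fibroblasts (CAFs, 6 arrays). Each stage has its own age and the NMFs alone carry no oncogene, so stage, age and genotype cannot be told apart where they change together. The arrays read pooled RNA, in which fewer cells of a type and less RNA per cell cannot be told apart either.

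MMPs are made as inactive proenzymes. Plasmin, furin-type convertases or other MMPs remove the propeptide, and the TIMPs, RECK and alpha-2-macroglobulin hold the active enzymes in check. In tumours much of the MMP supply is known to come from stromal and inflammatory cells, and AP-1 and Ets factors acting on short promoter motifs are textbook regulators of several family members in response to cytokines and growth factors. Mmp13, Mmp12, Mmp3 and Mmp10 lie in a gene cluster on chromosome 9, together with 6 further MMP genes. The others are spread over chromosome 8 (Mmp2), 2 (Mmp9), 10 (Mmp11 and Mmp19), 14 (Mmp14) and 4 (Mmp23).

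RefSeq promoter windows (GRCm38.p6, from 250 bases before a transcript start to 50 bases after it) were matched to 7 of the 10 genes, in 9 windows. The AP-1 motif TGAGTCA, searched on both strands, was present in 5.2% of all 32851 windows and in 1 window each of Mmp13, Mmp12, Mmp3 and Mmp10, all 4 of them genes of the chromosome 9 cluster. The windows of Mmp11, Mmp14 and Mmp23 did not hold these letters. The other genes of the cluster were not examined for the motif one by one. The 200 bases before the start are shown for the 4 genes because their windows held the motif. No window was matched for Mmp2, Mmp9 and Mmp19, so Mmp9, called higher in CAFs below, could not be searched. All 4 are on the plus strand, 5′ to 3′, with the AP-1 motif in capitals (in Mmp13 as its reverse complement).
Mmp13, chr9:7272314-7272513: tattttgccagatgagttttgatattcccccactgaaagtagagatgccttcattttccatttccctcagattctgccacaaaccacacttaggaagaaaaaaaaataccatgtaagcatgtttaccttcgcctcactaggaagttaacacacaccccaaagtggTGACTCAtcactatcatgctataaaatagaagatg
Mmp12, chr9:7347174-7347373: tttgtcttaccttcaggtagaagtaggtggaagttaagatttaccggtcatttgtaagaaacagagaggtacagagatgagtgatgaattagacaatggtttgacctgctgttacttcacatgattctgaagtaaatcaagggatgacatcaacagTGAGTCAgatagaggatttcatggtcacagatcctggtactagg
Mmp3, chr9:7445622-7445821: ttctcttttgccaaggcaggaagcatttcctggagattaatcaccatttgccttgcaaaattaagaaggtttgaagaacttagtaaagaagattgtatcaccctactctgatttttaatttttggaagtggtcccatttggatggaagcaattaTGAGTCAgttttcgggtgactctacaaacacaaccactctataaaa
Mmp10, chr9:7502142-7502341: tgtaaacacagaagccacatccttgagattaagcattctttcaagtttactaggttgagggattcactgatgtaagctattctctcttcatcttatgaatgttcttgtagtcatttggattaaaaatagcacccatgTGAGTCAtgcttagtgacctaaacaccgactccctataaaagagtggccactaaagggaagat
The motif began 35 bases before the start in Mmp13, 44 in Mmp12, 46 in Mmp3 and 63 in Mmp10. A second Mmp12 window, at chr9:7344147-7344446, did not hold it. The Ets motif AGGAAG, in 35.4% of all windows, occurred 2 times in the Mmp13 window and 1 time each in the Mmp3 window, the second Mmp12 window and the Mmp14 window. TATAAA, in 13.6% of all windows, was found in the same 4 windows as the AP-1 motif. These are matches of letters and no measure of binding.

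The values are log2 expression from the robust multi-average method (RMA), as the authors computed them, and a difference of 1 is a 2-fold change. They can be compared between arrays within a gene but not between genes. No detection call was used here, so a low level may be background, and the differences of Mmp9, Mmp10, Mmp12 and Mmp13 are differences in array signal. Where the lower group alone is background, such a difference would be a lower bound. Where both groups are, it may be no difference in expression. Mmp9 stayed between 4.05 and 4.995 and Mmp10 between 4.61 and 5.41 on every array. Normal D2 and advanced carcinoma D11 were not independent of the rest. In each probe set the average of this pair equalled the average of the remaining 9 arrays, their sum missing 2 times that average by at most 0.000144, and neither labels nor methods name a step that would do so. Every comparison was therefore also fitted with a term for these arrays, which gives both the same offset. A dependence of another form between them would not be absorbed by it. In CAFs against the others the term hardly moves a difference, because the pair has 1 array on each side and averages to the rest. A call kept there with the term is no check on the tie. Carcinoma D4 stood apart in another way. The mean of 13 fibroblast markers was 9.51 in D4, against 10.74 to 11.10 in the other 5 CAF arrays and 11.01 to 11.41 in normal and hyperplastic glands. Pdgfra, the marker of the sort, was high throughout (9.21 in D4, 10.50 to 11.35 elsewhere). The markers that the sort should have removed were higher in CAFs: Adgre1 by 2.32 (SE 0.50, limma adjusted p = 0.00719) and Epcam by 2.16 (SE 0.34, adjusted p = 0.00149). In CAFs against the others 12% of all genes were called higher and 12.8% lower, or 11.4% and 12.2% without D4. Of the 12 macrophage markers 11 rose in CAFs, with a mean level of 6.26 to 8.14 against 4.79 to 6.15. Of 15 luminal epithelial markers 12 rose and 2 fell (mean level 8.13 to 9.15 against 6.26 to 7.71). Among the other marker lists, 4 of 7 basal epithelial genes rose and 2 of 13 fibroblast genes fell (9 without D4). In addition, 2 of 10 endothelial, 4 of 10 T and NK cell (0 to 6 with 1 array left out), 3 of 5 B cell (1 to 5) and 6 of 9 adipocyte genes (4 to 6) fell. Of 7 pericyte genes 1 rose and 1 fell. With all arrays the fibroblast, endothelial and pericyte counts were near the shares of all genes. With the term for D2 and D11, the genes called lower were 1 endothelial, 1 T and NK cell, 1 B cell, 6 adipocyte and 0 pericyte. The part of these cells in the results below was not tested.

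Mmp13, collagenase-3, which cleaves fibrillar collagens, showed the widest stage difference of the 10 genes. It measured 3.36 (D2) and 3.74 (D5) in NMFs and 3.70 (D6), 3.68 (D7) and 3.90 (D12) in hyperplasia. It measured 5.88 (D3), 5.18 (D4) and 6.31 (D10) in carcinoma and 8.45 (D8), 8.09 (D9) and 7.51 (D11) in advanced carcinoma. All 6 CAF arrays lay above all 5 others, and all 3 arrays of advanced carcinoma lay above all 3 of carcinoma.

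Against NMFs, Mmp13 rose in advanced carcinoma by a log2 difference of 4.47 (SE 0.33, limma adjusted p = 0.0028). Against hyperplasia the difference was 4.26 (SE 0.30, adjusted p = 0.00126). Carcinoma was above hyperplasia by 2.03 (SE 0.30, adjusted p = 0.0101) and above NMFs by 2.24 (SE 0.33, adjusted p = 0.0286). With both tumour stages pooled, CAFs averaged 6.91 ± 1.31 (SD, n = 6) and the others 3.68 ± 0.20 (SD, n = 5), a log2 difference of 3.23 (SE 0.54, adjusted p = 0.00197). Advanced carcinoma differed from carcinoma by 2.23 (SE 0.30, 95% interval 1.55 to 2.90), with an adjusted p of 0.37. The comparison of these stages called 0 of 19938 genes. Hyperplasia and NMFs differed by 0.21 (95% interval -0.55 to 0.96, adjusted p = 0.999).

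The calls on Mmp13 for advanced carcinoma against NMFs and against hyperplasia, and for CAFs against the others, were kept whichever array was left out. With the term for D2 and D11, which covers a shared offset only, they were kept too (limma adjusted p = 0.00364, 0.00249 and 0.0041). The CAF difference was 3.23 with and without the term, so that fit does not check the tie. The call for carcinoma against hyperplasia was kept without any 1 array and lost in a fit on these 6 arrays alone (adjusted p = 0.0841). That for carcinoma against NMFs did not hold with the term (1.94, adjusted p = 0.0914), nor without any 1 of normal D2 (0.115), normal D5 (0.268), hyperplasia D6 (0.0504), hyperplasia D7 (0.0581), carcinoma D3 (0.0726), advanced carcinoma D8 (0.0632) or advanced carcinoma D9 (0.0683).

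**Figure D1:**
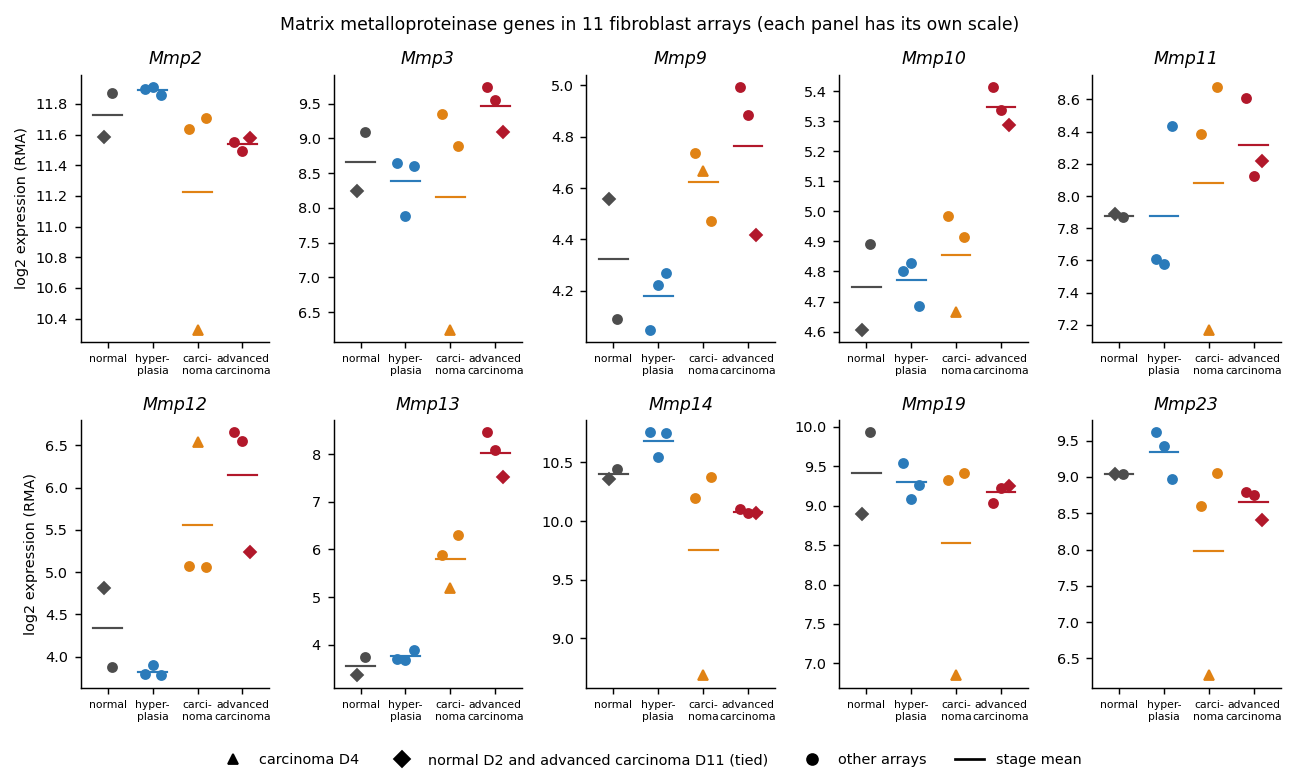
Log2 expression (RMA) of the 10 metalloproteinase genes in each of the 11 arrays by stage, with the stage mean as a line and a separate vertical scale for each gene. Triangles mark carcinoma D4 and diamonds the tied arrays D2 and D11. Mmp13 climbs from 3.36 to 3.90 in normal and hyperplastic glands to between 7.51 and 8.45 in advanced carcinoma, and D4 is the lowest array for Mmp2, Mmp3, Mmp11, Mmp14, Mmp19 and Mmp23.

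Mmp12, the elastase best known from macrophages, was also above all 5 other arrays in all 6 CAF arrays. It measured 4.81 (D2) and 3.88 (D5) in NMFs and 3.79, 3.90 and 3.78 in hyperplasia (D6, D7 and D12). In carcinoma it measured 5.07 (D3), 6.54 (D4) and 5.06 (D10), and in advanced carcinoma 6.65 (D8), 6.55 (D9) and 5.24 (D11). The high arrays, D4, D8 and D9, came from both tumour stages, and the other 3 CAF arrays lay closer to normal D2 than to these.

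CAFs exceeded the others by 1.82 in Mmp12 (SE 0.36, limma adjusted p = 0.00523). Without D4, D8 and D9 the difference was 1.09 (adjusted p = 0.0214). Advanced carcinoma exceeded hyperplasia by 2.33 (SE 0.48, adjusted p = 0.0149), a call that was lost without hyperplasia D7 (adjusted p = 0.0513), advanced carcinoma D8 (0.0677) or advanced carcinoma D9 (0.0692). Against NMFs the difference was 1.80 (SE 0.54, adjusted p = 0.0872), and carcinoma against hyperplasia gave 1.73 (SE 0.48, adjusted p = 0.0557). Leaving out 1 array brought the first of these under 0.05 in the case of carcinoma D4 (0.0187), and the second in the case of carcinoma D10 (0.0462) or advanced carcinoma D11 (0.0415).

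The macrophage markers were highest in the same 3 arrays as Mmp12. Their mean log2 level over 12 genes was 7.77 in D4, 7.99 in D8 and 8.14 in D9, against 6.44 in D3, 6.26 in D10 and 6.49 in D11. It was 6.15 and 5.10 in NMFs and 4.79 to 5.37 in hyperplasia. C1qc, a complement gene of the macrophage list, was among the 3 genes most like Mmp12 across the 11 arrays (Pearson r = 0.987), after Zdhhc21 (r = 0.991) and Hal (r = 0.990). The coefficients were the highest among genes at or above the median gene level, over arrays that share stages, and carry no test. In these 3 arrays Mmp13 measured 5.18 (D4), 8.45 (D8) and 8.09 (D9). The part of macrophages in the levels of either gene was not tested.

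**Figure D2:**
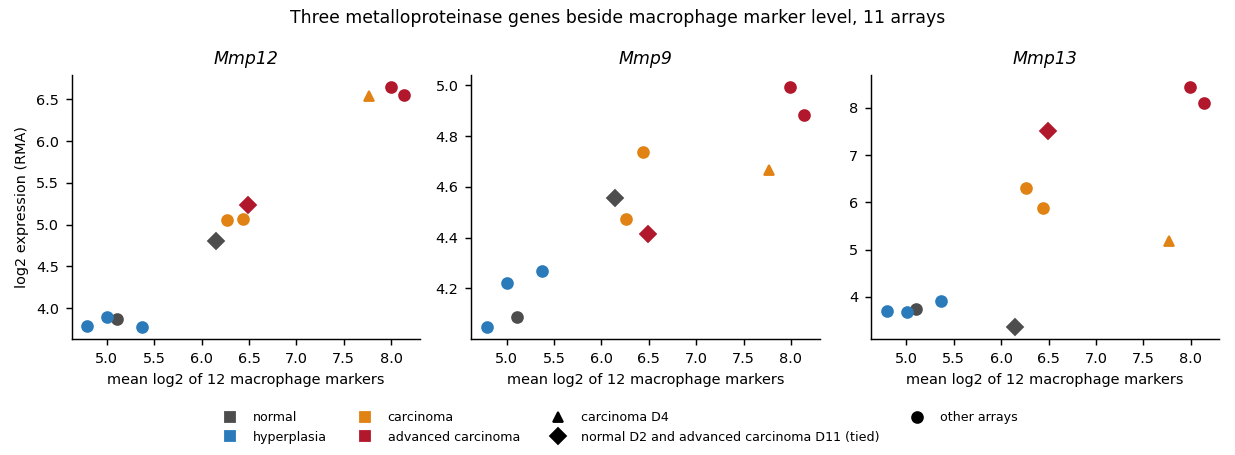
Log2 expression of Mmp12, Mmp9 and Mmp13 in each of the 11 arrays (vertical axes) against the mean log2 level of 12 macrophage markers in the same array (horizontal axes), coloured by stage, with the tied arrays as diamonds and carcinoma D4 as a triangle. In the 3 arrays with the highest marker means (7.77 in D4, 7.99 in D8 and 8.14 in D9), Mmp12 measures 6.54, 6.65 and 6.55 and Mmp13 5.18, 8.45 and 8.09.

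Of the gelatinases, which degrade denatured collagen and basement membrane collagen, Mmp9 was higher in CAFs, and Mmp2 did not pass the test with all arrays. Mmp9 measured 4.56 (D2) and 4.09 (D5) in NMFs and 4.05, 4.22 and 4.27 in hyperplasia. It measured 4.74 (D3), 4.67 (D4) and 4.47 (D10) in carcinoma and 4.995 (D8), 4.88 (D9) and 4.42 (D11) in advanced carcinoma. The whole range was 0.95, and 4 of 6 CAF arrays were above all the others. The arrays that overlapped were normal D2 on one side and D10 and D11 on the other.

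CAFs exceeded the others by 0.46 in Mmp9 (SE 0.12, limma adjusted p = 0.0191). The call was lost without D4, D8 and D9 together (0.31, adjusted p = 0.168) and under array weights (0.35, adjusted p = 0.0799). It also failed at the study's threshold by either test, as its fold of 1.374 is under 1.5. Advanced carcinoma exceeded hyperplasia by 0.59 (SE 0.17, adjusted p = 0.0494). That call failed with the term for D2 and D11 (0.0791) and without any 1 of hyperplasia D6 (0.139), hyperplasia D7 (0.112), hyperplasia D12 (0.0738), carcinoma D3 (0.0659), carcinoma D10 (0.0539), advanced carcinoma D8 (0.173) or advanced carcinoma D9 (0.166). Neutrophils are a known source of Mmp9, and of the 12 neutrophil markers 2 rose and 1 fell in CAFs, beside 12% and 12.8% of all genes. Those that rose were Ltf (2.91, adjusted p = 0.000377) and Lcn2 (1.998, adjusted p = 0.000905), both of which are also expressed by mammary epithelium. Ly6g fell by 0.24 (adjusted p = 0.0432, and 0.0641 with the term for D2 and D11). Among the other 9, S100a8 (0.71, adjusted p = 0.0613), Csf3r (0.44, adjusted p = 0.0755), Mpo (-0.02, adjusted p = 0.856) and Elane (-0.14, adjusted p = 0.125) did not pass. The list median was 0.03, and the part of neutrophils in the Mmp9 values was not tested. The genes most like Mmp9 were Ednrb (r = 0.962), Mrps18c (r = 0.960) and the chemokine gene Ccl3 (r = 0.958), over 11 arrays and as a description.

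Mmp2 measured 11.59 and 11.87 in NMFs and 11.86 to 11.91 in hyperplasia. In carcinoma it measured 11.63 (D3), 10.33 (D4) and 11.71 (D10), and in advanced carcinoma 11.55, 11.49 and 11.58 (D8, D9 and D11). CAFs differed from the others by -0.44 (SE 0.22, limma adjusted p = 0.163). D4 was the lowest of all 11 arrays. Without it Mmp2 fell by 0.23 (SE 0.07, adjusted p = 0.0375), and the other 22 alternatives left Mmp2 uncalled in this comparison.

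Of the stromelysins, Mmp10 (stromelysin-2), which acts on proteoglycans, laminin and other MMP proenzymes, rose in advanced carcinoma. It measured 4.61 (D2) and 4.89 (D5) in NMFs, 4.80, 4.83 and 4.68 in hyperplasia and 4.99 (D3), 4.66 (D4) and 4.91 (D10) in carcinoma. In advanced carcinoma it measured 5.41 (D8), 5.34 (D9) and 5.29 (D11), above each of the other 8 arrays. The difference was 0.60 from NMFs (SE 0.12, limma adjusted p = 0.0244) and 0.57 from hyperplasia (SE 0.10, adjusted p = 0.00908). The call against hyperplasia was lost without D4, D8 and D9 together, which leaves 1 advanced carcinoma array. It also failed at the study's threshold by either test, as its fold of 1.489 is under 1.5. The call against hyperplasia was kept without any 1 array. The call against NMFs was not: it was lost without normal D2 (0.132), normal D5 (0.0802), advanced carcinoma D8 (0.0926) or advanced carcinoma D9 (0.0886).

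From carcinoma to advanced carcinoma Mmp10 differed by 0.49 (SE 0.10, adjusted p = 0.76). CAFs as a whole differed from the others by 0.34 (SE 0.13, adjusted p = 0.0785), and without D4 they rose by 0.43 (SE 0.10, adjusted p = 0.0151). The genes most like Mmp10 were Flot1 (r = 0.937), Dio2 (r = 0.920) and Wwc2 (r = 0.916). Flot1 was also among the 3 most like Mmp13 (r = 0.954), beside Slc20a1, a phosphate transporter gene (r = 0.962), and Ociad2 (r = 0.954).

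Mmp3 (stromelysin-1) measured 8.24 and 9.09 in NMFs and 8.65, 7.89 and 8.61 in hyperplasia. It measured 9.35 (D3), 6.25 (D4) and 8.89 (D10) in carcinoma and 9.74, 9.55 and 9.10 in advanced carcinoma (D8, D9 and D11). D4 was the lowest of all 11 arrays, 3.08 below the mean of the other CAF arrays. With all arrays, CAFs differed by 0.32 (SE 0.55, 95% interval -0.89 to 1.53, limma adjusted p = 0.703). Without D4, Mmp3 rose by 0.83 (SE 0.22, adjusted p = 0.023), and the other 22 alternatives left Mmp3 uncalled in this comparison.

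Mmp11 (stromelysin-3), known from the stroma around breast tumours, measured 7.89 and 7.87 in NMFs, 7.61, 7.58 and 8.44 in hyperplasia, 8.39, 7.17 and 8.68 in carcinoma (D3, D4 and D10) and 8.61, 8.13 and 8.22 in advanced carcinoma. Hyperplasia D12 lay within the range of the CAF arrays, and D4 below all others. The CAF difference was 0.32 (SE 0.26, 95% interval -0.24 to 0.89, limma adjusted p = 0.386). Without D4 the rise was 0.53 (SE 0.17, adjusted p = 0.0449), and the other 22 alternatives left Mmp11 uncalled.

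Mmp14, the membrane-type MMP that activates pro-MMP2 at the cell surface, measured 10.36 and 10.44 in NMFs and 10.76, 10.55 and 10.75 in hyperplasia. It measured 10.20 (D3), 8.68 (D4) and 10.38 (D10) in carcinoma and 10.10, 10.07 and 10.07 in advanced carcinoma. Of the 6 CAF arrays 5 were below all 5 others, the exception being D10. The CAF difference was -0.66 (SE 0.26, limma adjusted p = 0.0874). Without D4, Mmp14 fell by 0.41 in CAFs (SE 0.09, adjusted p = 0.0109), and in advanced carcinoma by 0.32 against NMFs (adjusted p = 0.0372) and by 0.60 against hyperplasia (adjusted p = 0.000901).

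Mmp23, a membrane-anchored member with an unusual domain structure, measured 9.04 in both NMF arrays and 9.61, 9.43 and 8.97 in hyperplasia. It measured 8.60 (D3), 6.26 (D4) and 9.06 (D10) in carcinoma and 8.80, 8.76 and 8.41 in advanced carcinoma. Again 5 of 6 CAF arrays lay below all the others, with D10 the exception. The difference was -0.90 (SE 0.43, limma adjusted p = 0.148) and, without D4, a fall of 0.49 (SE 0.15, adjusted p = 0.0377). The other 22 alternatives left Mmp23 uncalled in the CAF comparison.

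Mmp19, a secreted MMP with basement membrane substrates, measured 8.90 and 9.93 in NMFs, 9.54, 9.08 and 9.27 in hyperplasia, 9.32, 6.85 and 9.42 in carcinoma (D3, D4 and D10) and 9.03, 9.23 and 9.25 in advanced carcinoma. Outside D4 the stages overlapped throughout. The CAF difference was -0.49 (SE 0.43, 95% interval -1.44 to 0.45, limma adjusted p = 0.427), and -0.09 without D4 (SE 0.17, adjusted p = 0.733). It was the only 1 of the 10 genes not called in the CAF comparison without D4.

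With all arrays, 4 of the 10 genes rose in advanced carcinoma against hyperplasia (Mmp13, Mmp12, Mmp10 and Mmp9) and 0 fell, beside 14.5% of all genes called in either direction and 8.52% called higher. Of the 12 other MMPs 0 rose and 2 fell in this comparison. In advanced carcinoma against NMFs 2 of 10 rose (Mmp13 and Mmp10), beside 5.61% of all genes called and 3.9% called higher. Carcinoma gave 1 of 10 against hyperplasia (Mmp13), beside 9.25% of all genes, and 1 of 10 against NMFs (Mmp13), beside 0.938%. CAFs against the others gave 3 of 10 (Mmp13, Mmp12 and Mmp9), beside 24.9% of all genes called and 12% called higher. These counts are those with all arrays, and without carcinoma D4 the CAF comparison had 6 of 10 called higher, beside 11.4% of all genes, and 3 called lower, beside 12.2%. The median log2 difference of the 10 genes was 0.44 against NMFs and 0.51 against hyperplasia in advanced carcinoma, -0.20 and -0.07 in carcinoma, and 0.32 in CAFs, beside medians over all genes of -0.03, -0.04, -0.03, -0.04 and -0.04.

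Hyperplasia against NMFs called 0 of 10, beside 0% of all genes, with 0 of 10 and 841 of 19938 genes at an unadjusted limma p under 0.05. Advanced carcinoma against carcinoma also called 0 of 10, beside 0% of all genes. At an unadjusted p under 0.05 it gave 2 of 10 (Mmp13 and Mmp10) and 1124 of 19938 genes. The contrasts of the one-way test that the methods name, adjusted in the same way, called 0 genes in both comparisons, and limma with array weights called 0 in the first and 1301 in the second, with Mmp13 (adjusted p = 0.0175) and Mmp10 (adjusted p = 0.0332) among them.

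Carcinoma D4 was the lowest of the 11 arrays in 6 of the 10 genes: Mmp2, Mmp3, Mmp11, Mmp14, Mmp19 and Mmp23. Relative to the mean of the other CAF arrays its offset in these ran from -1.23 (Mmp11) to -3.08 (Mmp3). In the remaining 4 genes the offset was -2.07 for Mmp13, -0.52 for Mmp10, -0.04 for Mmp9 and 0.82 for Mmp12. Leaving D4 out raised the calls from 3 to 9 of 10 in CAFs against the others (beside 23.6% of all genes), from 4 to 8 in advanced carcinoma against hyperplasia (5 higher and 3 lower, beside 25.2%) and from 2 to 4 in advanced carcinoma against NMFs (3 higher and 1 lower, beside 15.8%). The CAF calls of Mmp2, Mmp3, Mmp11 and Mmp23 appeared under this 1 of 23 alternatives only. Mmp10 gained its CAF call under 2 alternatives and Mmp14 under 4.

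**Figure D3:**
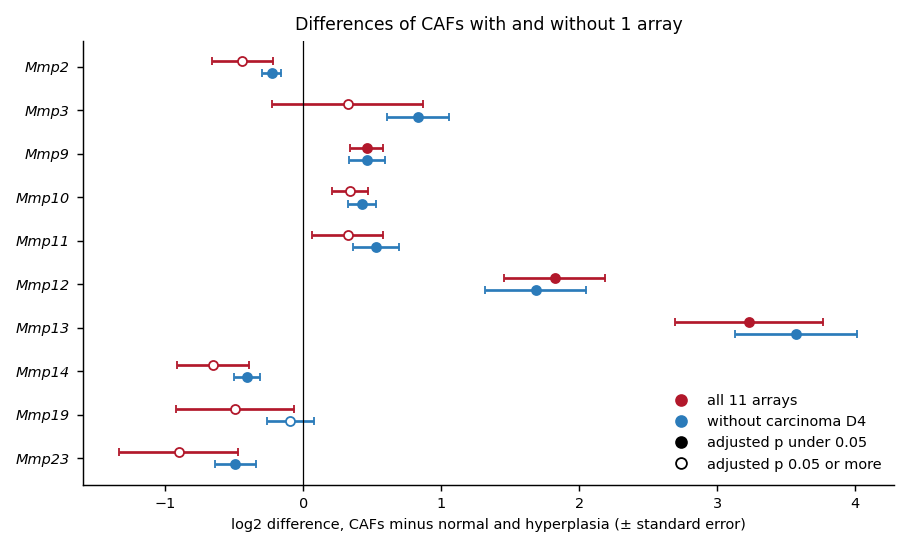
Log2 difference of CAFs from normal and hyperplastic glands for each of the 10 genes (horizontal axis, bars ± 1 standard error of the limma fit), with all 11 arrays in red and without carcinoma D4 in blue. Filled symbols have an adjusted p under 0.05: Mmp9, Mmp12 and Mmp13 with all arrays, and all but Mmp19 without D4.

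Within the chromosome 9 cluster the genes run in the order Mmp13, Mmp12, Mmp1b, Mmp3, Mmp1a, Mmp10, Mmp8, Mmp27, Mmp20 and Mmp7. In the CAF comparison with all arrays Mmp13 and Mmp12 were called higher and Mmp27 lower. Without carcinoma D4, Mmp3 and Mmp10 were called higher too, with the values given above. Mmp27, which is no member of the 10, measured 8.28 and 8.07 in NMFs, 8.999, 8.95 and 8.50 in hyperplasia, 7.23, 5.81 and 8.04 in carcinoma and 6.44, 6.26 and 6.90 in advanced carcinoma. All 6 CAF arrays were below all 5 others, and the fall was 1.78 (SE 0.35, limma adjusted p = 0.00518). Mmp1a, Mmp1b, Mmp7, Mmp8 and Mmp20 stayed between 3.91 and 4.48 on every array, and none of them passed with all arrays or without D4.

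**Figure D4:**
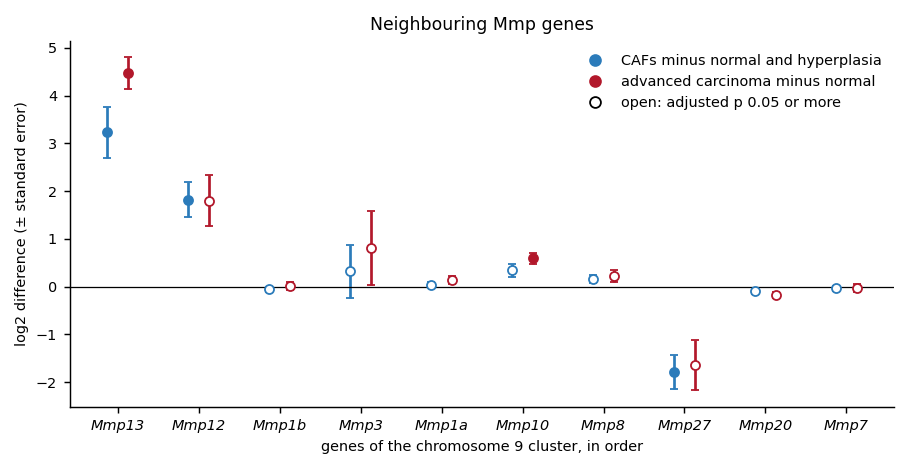
Log2 differences (± standard error) of the 10 MMP genes of the chromosome 9 cluster in their order along the chromosome, for CAFs minus normal and hyperplastic glands (blue) and advanced carcinoma minus normal glands (red). Open symbols have an adjusted p of 0.05 or more. All 11 arrays are used: Mmp13 and Mmp12 are called higher in CAFs and Mmp27 lower, and without carcinoma D4 Mmp3 and Mmp10 are called higher in CAFs as well.

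Among the other MMPs (12 of 13 measured), 3 fell in CAFs, beside 12.8% of all genes called lower, and 0 rose, beside 12% called higher. Those that fell were Mmp27, the membrane-anchored Mmp17 (-0.76, limma adjusted p = 0.00778) and Mmp28, or epilysin (-0.72, adjusted p = 0.0154). The median of the list was -0.08, beside -0.04 over all genes.

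Of the 9 genes listed as MMP inhibitors, 1 rose and 5 fell in CAFs, beside 12% and 12.8% of all genes, with a list median of -0.81. The one that rose was A2m, alpha-2-macroglobulin, which traps proteases of many kinds (1.30, SE 0.31, limma adjusted p = 0.0113). It measured 4.09 to 4.42 in NMFs and hyperplasia, 4.62, 5.46 and 4.74 in carcinoma and 6.01, 6.54 and 5.77 in advanced carcinoma, so all 6 CAF arrays were above the others. In advanced carcinoma against NMFs it rose by 1.97 (adjusted p = 0.00861), a call lost without normal D2 or normal D5 (highest adjusted p 0.0802).

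The testican genes of this list, Spock2 (-1.54, limma adjusted p = 0.00446) and Spock3 (-1.46, adjusted p = 0.00446), fell in CAFs. So did Timp3 (-0.82, adjusted p = 0.0147), Timp2 (-0.57, adjusted p = 0.0149) and Reck (-0.98, adjusted p = 0.0189). Whether the product of each listed gene inhibits MMPs was not examined, so these falls are no measure of MMP inhibition. Timp2 and Reck stand outside the rule for named genes and were added after their values were seen. Every one of the 6 calls in this list was kept without any 1 array. Timp1, named after its values were seen, measured 8.05 and 8.35 in NMFs, 8.52, 7.50 and 8.39 in hyperplasia, 9.10, 6.39 and 9.65 in carcinoma and 9.42, 9.41 and 9.001 in advanced carcinoma. Its CAF difference was 0.67 (adjusted p = 0.371), and without D4 it rose by 1.15 (adjusted p = 0.00239).

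Of 15 genes of MMP activation and clearance measured, 5 rose and 2 fell in CAFs, beside the same shares of all genes, with a median of -0.0048. Lcn2 rose by 1.998 (SE 0.29, limma adjusted p = 0.000905). It is also expressed by neutrophils and epithelium and stands in the neutrophil list. Cd44, which docks MMP9 at the cell surface, rose by 1.06 (SE 0.18, adjusted p = 0.00231), and Furin, the convertase that activates membrane-type MMPs, by 0.43 (SE 0.09, adjusted p = 0.00579). The convertase gene Pcsk6 fell by 1.26 (SE 0.22, adjusted p = 0.0027). These 4 calls were kept without any 1 array. Plau, the urokinase gene, was named after its values were seen. It fell by 1.08 (SE 0.23, adjusted p = 0.00695), a call also kept without any 1 array. With 1 array left out, 4 to 5 genes of this list rose and 2 fell, and with the term for D2 and D11 4 rose.

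Of 19 upstream inducers measured, 6 rose and 0 fell in CAFs, beside 12% and 12.8% of all genes, with a median of 0.44. With the term for D2 and D11 the number that rose was 4. It was 2 without any 1 of hyperplasia D6, hyperplasia D7 or advanced carcinoma D8, 3 without hyperplasia D12 or advanced carcinoma D9, and 5 to 7 without any other 1 array. Tgfb3 rose by 0.95 (SE 0.09, limma adjusted p = 0.000166) and the Ets factor gene Etv5 by 1.08 (SE 0.15, adjusted p = 0.000736), both above all others in 6 of 6 CAF arrays and called without any 1 array. The cytokine genes Il1b (1.74, SE 0.50, adjusted p = 0.0278) and Il1a (1.22, SE 0.36, adjusted p = 0.0282) also rose. Il1b lost its call without normal D5, without any 1 of the 3 hyperplasia arrays or without advanced carcinoma D8 (highest adjusted p 0.0671), and Il1a without these or advanced carcinoma D9 (highest 0.0617). Both followed the arrays with high macrophage markers. Il1b measured 7.67 in D8, 7.96 in D9 and 6.65 in D4, against 5.60 in D3, 5.19 in D10, 5.80 in D11 and 5.57 in normal D2.

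Of 13 substrates and collagen turnover genes measured, 1 fell in CAFs, beside 12.8% of all genes called lower: Dpp4, a membrane peptidase gene (-1.09, SE 0.26, limma adjusted p = 0.0132). The list median was -0.68. Without D4, 8 of the 13 were called lower, beside 12.2% of all genes, and without carcinoma D10 the number was 3. It was 2 without normal D2 or carcinoma D3.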

How the data were processed

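RNA of 11 pooled cohorts was hybridised to Affymetrix Mouse Gene 1.0 ST arrays. RMA normalisation and summary were run by the authors in Partek Genomics Suite 6.5, and they deposited log2 values for 35399 probe sets (array medians 5.28 to 5.39). Scanner files were not analysed here. Names were taken from the annotation where it gave a probe set 1 symbol (21789; 1621 had several and 11989 none here), and the brightest per gene left 19938 genes. Arrays carry no read depth, and their small number limits the precision.

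Comparisons used limma 3.58.1 (R 4.3.3), with 4 stage means fitted over all 11 arrays (residual degrees of freedom 7, or 6 with a term for D2 and D11). CAFs were compared with normal and hyperplastic glands in a fit with 2 means. P-values were adjusted by Benjamini-Hochberg over all genes within each of 7 comparisons, at a threshold of 0.05. The code was tested on simulated data. The methods name a one-way analysis of variance, for which limma stands here because stages hold 2 or 3 arrays.

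The 10 genes, and the pathway and marker lists (163 of 172 genes measured), were chosen with earlier results of these data known. Every member was named, together with at most 4 genes per pathway list past the threshold in CAFs or in advanced carcinoma against NMFs, by smallest p, and the 3 genes with the highest Pearson r to each member called. Alternatives were the term for D2 and D11, their removal, median centring, quantile normalization, removal of dim genes, every probe set, the methods' contrasts, limma-trend, array weights, the compared groups alone, the study's threshold (unadjusted p under 0.05 and a fold over 1.5), removal of D4, D8 and D9, and each array left out in turn. For the lists, the term and the removal of single arrays were chosen after seeing the data. Promoter windows came from a RefSeq table (GRCm38.p6), and no coordinates were taken for the probe sets, whose build is not given in the sources used here.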

Additional observations from a re-analysis of the deposited data

Results flagged for a closer look

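Among the 10 genes, 20 groups (CAFs, and normal with hyperplastic glands) were checked for 1 array lying far from the nearest of the others relative to the whole range, and 8 such arrays were found. The limit used is one that chance passes in about 1 in 20 independent groups. These groups share arrays, and 6 of the 8 finds were carcinoma D4 and 2 were normal D2. Carcinoma D4 lay far below the other CAF arrays in Mmp2 (10.33, nearest 11.49), Mmp3 (6.25, nearest 8.89), Mmp11 (7.17, nearest 8.13), Mmp14 (8.68, nearest 10.07), Mmp19 (6.85, nearest 9.03) and Mmp23 (6.26, nearest 8.41). The mean of 13 fibroblast markers was 9.51 in D4 and at least 10.74 in every other array, and its part in these values was not tested. Normal D2 lay apart from the other normal and hyperplastic arrays in Mmp2 (11.59, nearest 11.86) and Mmp12 (4.81, nearest 3.90), and its macrophage marker mean was 6.15 against 4.79 to 5.37. D2 is also 1 of the 2 arrays whose values are tied, and whether this bears on them was not tested.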

How the results depend on the processing

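The count of the 10 genes called in advanced carcinoma against NMFs (2) was 1 without D2 and D11, with median centring, with the methods' contrasts after adjustment and without D4, D8 and D9, and 0 with dim genes removed. In carcinoma against NMFs (1) it was 0 with the term for D2 and D11, without these arrays, with dim genes removed, with the adjusted contrasts and with the compared groups alone. In carcinoma against hyperplasia (1) it was 2 with median centring, with the contrasts at the study's threshold and without D4, D8 and D9, 4 with limma at that threshold, and 0 with dim genes removed or the compared groups alone. In advanced carcinoma against hyperplasia (4) it was 8 with the compared groups alone, 1 without D4, D8 and D9 and 0 with dim genes removed. In advanced carcinoma against carcinoma (0) it was 2 with array weights and 1 at the study's threshold by either test. In CAFs against the others (3) it was 0 with dim genes removed. The removal of dim genes takes out Mmp9, Mmp10, Mmp12 and Mmp13 by construction, and for the other settings the cause was not tested. With 1 array left out the counts ranged, in the same order, from 1 to 4, 0 to 1, 1 to 2, 2 to 8, 0 to 0 and 3 to 9. Hyperplasia against NMFs kept a count of 0 under every alternative. Over all genes, advanced carcinoma against NMFs called 1118 genes, and 466 with the term, 27 without D2 and D11, and 40 without normal D5. Of 647 values of single genes under an alternative, 566 stayed on their side of the threshold, 43 lost a call, 38 gained one and 0 changed direction. They cover only those pairs of gene and comparison that were called under at least 1 setting. Pairs outside them did change direction. Without D4, Mmp2 in advanced carcinoma against carcinoma went from 0.32 to -0.13, and Mmp3 in carcinoma against NMFs from -0.50 to 0.46. No paired analysis was possible because array numbers are not shared between stages. In CAFs, removal of D4 took the genes of the inhibitor list called higher from 1 to 2 and the substrates called lower from 1 to 8. With 1 array left out the inducers called higher (6) ranged from 2 to 7.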
